A study of Danio rerio with 30 samples.

Results

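The csf1rb by NMDA interaction asks, gene by gene, whether the change that follows retinal injury in csf1rb mutant zebrafish differs from the change in wild-type (WT) zebrafish. It is the difference between injured and uninjured csf1rb mutant retinas minus the same difference in WT retinas. By the titles, 12 of the 30 libraries of the series enter it: csf1rb mutants after NMDA (replicates 1, 2 and 4), uninjured csf1rb mutants (replicates 1, 2 and 3), WT fish after NMDA (replicates 1, 2 and 3) and uninjured WT fish (replicates 1, 2 and 3). All 32520 Ensembl gene entries of the count table were taken, and the 20254 with enough counts were tested.

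Csf1 receptors are receptor tyrosine kinases on which microglia, the resident macrophages of nervous tissue, and other macrophages depend, and zebrafish carry a pair of them, csf1ra and csf1rb. Müller glia are the radial glia of the retina. In fish they answer the loss of neurons by lowering their mature genes, switching on reprogramming factors and re-entering the cell cycle to yield progenitors of new neurons, while microglia clear dead cells and release signals.

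The series measured polyadenylated RNA of adult zebrafish (Danio rerio) retina in a needle poke experiment with drugs, not used here, and in an NMDA experiment. NMDA is a glutamate receptor agonist that kills neurons by overexcitation. It was injected into the vitreous of the injured groups, whose fish were killed 2 days later. The NMDA experiment also held csf1ra mutants, injured and uninjured, which enter the estimate of the spread and a comparison near the end. The labels name neither the csf1rb allele nor the age of the fish, nor whether the 3 libraries of a group came from different animals. The spread behind each p-value is therefore that between libraries, which may be technical. Titles carry the letters MG, whereas the extraction notes describe whole retinas broken up in TRIzol with no sorting of cells. Reads of an egfp reporter were present in all 12 libraries and no label describes that transgene. In such bulk samples, fewer cells of a type and less RNA per cell cannot be told apart.

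Total counts ran from 22849708 to 41622168 per library. Markers of rods, cones, Müller glia, bipolar cells, amacrine cells and microglia were all detected. Replicate 3 of the uninjured csf1rb mutants stood apart from replicates 1 and 2. On the third principal component, which held 4.76% of the variance over the 12 libraries, it lay at -6.26, against -37.1 and -34.7 for the other two. Replicate 4 of the mutants after NMDA also lay apart from its group. On the first component (71.8%) it was at -127.5, against -108.3 and -101.8 for replicates 1 and 2. Interaction counts of the gene lists described below are also given without replicate 3 of the uninjured mutants where they moved. Counts between csf1rb and csf1ra mutants are given that way only for some lists.

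The targeted gene, csf1rb (ENSDARG00000053624), was scarce in every library. It had 0, 1 and 1 counts in csf1rb mutants after NMDA and 2, 10 and 2 in uninjured csf1rb mutants, against 8, 9 and 10 in WT after NMDA and 16, 9 and 21 in uninjured WT. Replicate 2 of the uninjured mutants was within the WT range, and the other mutant libraries were below all WT libraries. The labels do not say which part of the gene is altered, so these counts are a weak check of the genotype. With 2 counts over the mutants after NMDA, no interaction is given for this gene.

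Its paralog csf1ra (ENSDARG00000102986) stood at 3.63 ± 0.445 CPM (counts scaled to library size) in csf1rb mutants after NMDA and 1.35 ± 0.466 in uninjured csf1rb mutants, against 6.98 ± 0.433 in WT after NMDA and 4.15 ± 0.211 in uninjured WT (SD, n = 3 each). The interaction was 0.68 ± 0.29 (log2, SE) and did not pass the test (edgeR quasi-likelihood test with Benjamini-Hochberg adjustment, adjusted p = 0.17). Without replicate 2 of the uninjured mutants it was 0.99 and passed (adjusted p = 0.041). The receptor ligand il34 rose after injury in both genotypes, to 38.1 ± 9.61 CPM in csf1rb mutants and 22.3 ± 3.58 in WT, against 2.51 ± 0.239 and 3.45 ± 0.345 in the same genotypes uninjured. Its interaction of 1.23 ± 0.37 (adjusted p = 0.049) was lost when any library but replicate 2 of the mutants after NMDA was left out. The ligand csf1a had 27, 4, 14 and 5 counts over the 4 groups in the same order as csf1ra (adjusted p = 0.71), and csf1b had 1 count in all.

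Across all genes, the injury changes of the genotypes ran broadly together. The log2 changes had a Pearson r of 0.863 and a Spearman rank correlation of 0.872 over 20254 genes, with a slope of 0.84 for mutant on WT, where genes are not independent replicates. NMDA raised 7488 genes (37%) and lowered 6791 (33.5%) in csf1rb mutants, 70.5% of the genes tested together. It raised 7210 (35.6%) and lowered 6939 (34.3%) in WT, 69.9% together. The interaction was called for 1656 genes, 8.18% of those tested, at an adjusted p under 0.05. An unadjusted p under 0.05 was reached by 4572. The interaction was above 0 for 831 (4.1%) and below 0 for 825 (4.07%), and the median over all genes was -0.04 on the log2 scale. A value above 0 means that the injury change of the mutant lay above that of WT, and a value below 0 that it lay below. The 1656 calls were 1783 without replicate 3 of the uninjured mutants, and 984 to 1090 without replicate 1 of the mutants after NMDA, replicate 1 or 2 of the uninjured mutants, replicate 2 of WT after NMDA, or any 1 uninjured WT library.

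**Figure D1:**
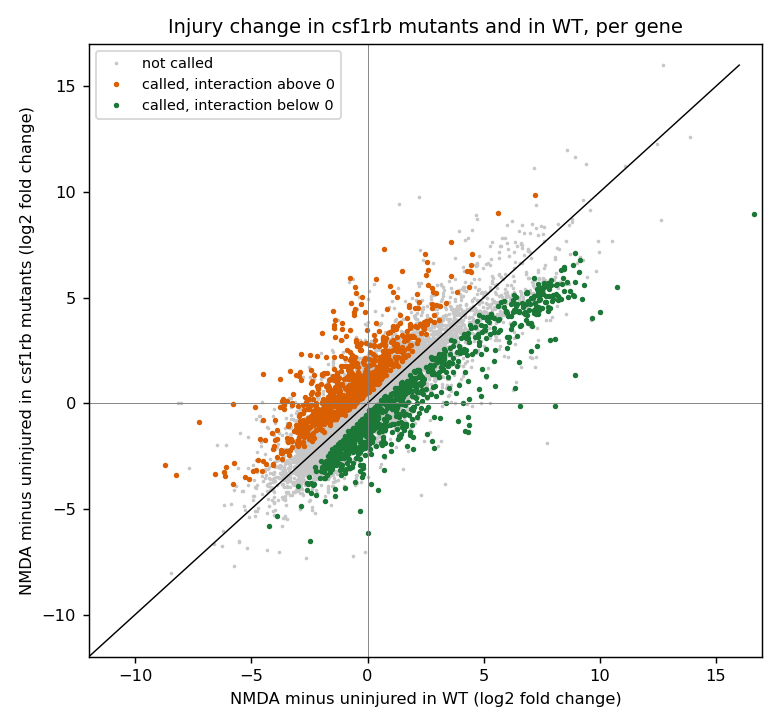
Log2 fold change from uninjured to NMDA in csf1rb mutants (vertical axis) against the same change in WT (horizontal axis), a point per tested gene. The 831 genes called above 0 lie over the line of equal change and the 825 called below 0 lie under it.

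Of the 825 genes below 0, many differed between genotypes in uninjured retinas. The csf1rb mutants differed from WT at 26.9% of all tested genes uninjured (14.5% higher, 12.4% lower) and at 23.2% after NMDA (11.9% higher, 11.4% lower). In 454 of the 825 (55%) the uninjured mutant was higher than uninjured WT and the difference in injured retinas was not called. That class held 9.06% of all tested genes. The interaction is the genotype difference after NMDA minus that in uninjured retinas, so calls in either direction gather in such classes partly by construction. A further 211 (25.6%) were lower in the mutant after NMDA with no called difference in uninjured retinas, as were 5.56% of all tested genes, and 67 were both higher before and lower after injury. By their injury changes, 333 rose in both genotypes (40.4%, against 30.7% of genes not called in the interaction). Another 113 rose in WT without a called change in the mutant (13.7% against 4.39%), and 49 rose in WT and fell in the mutant (5.94% against 0.016%). The other 136 fell in the mutant with no called change in WT (16.5% against 4.94%), and 194 fell in both genotypes (23.5% against 28.65%). The interaction is also the difference between these injury changes, so calls gather where they are unlike partly by construction.

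The 831 genes above 0 divided more evenly. The uninjured mutant was lower than uninjured WT with no called difference after NMDA in 327 (39.4%), against 6.47% of all tested genes. The mutant was higher after NMDA with no called difference uninjured in 296 (35.6%), against 6.33% of all tested genes, and 92 genes were lower before and higher after. By their injury changes, 188 rose in both genotypes (22.6%) and 163 fell in both (19.6%), below the 30.7% and 28.65% of genes not called in the interaction. A further 201 rose in the mutant without a called change in WT (24.2% against 5.2%), and 91 rose in the mutant and fell in WT (10.95% against 0%). The other 188 fell in WT without a called change in the mutant (22.6% against 5.24%).

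**Figure D2:**
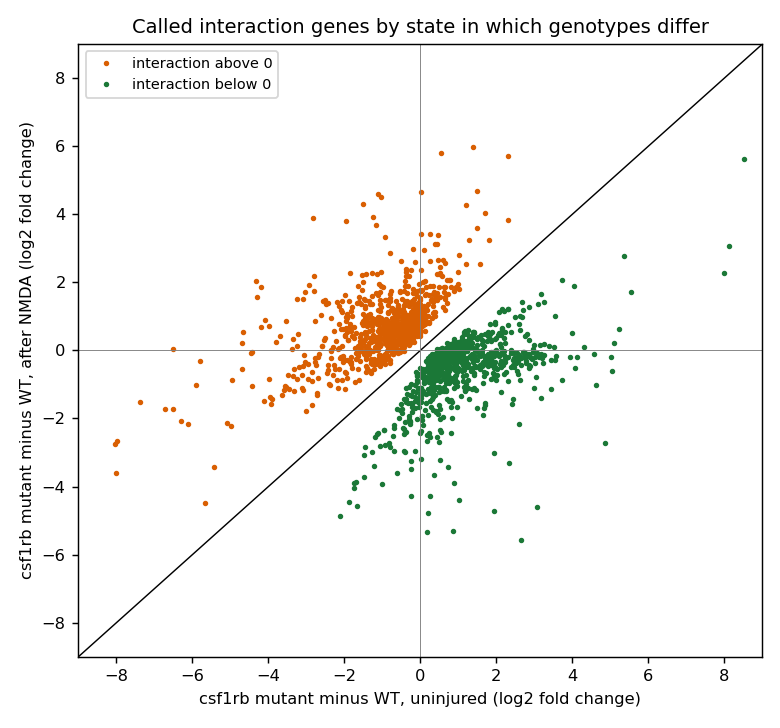
The 1656 genes with a called interaction, with the log2 difference between csf1rb mutants and WT after NMDA on the vertical axis and the same difference in uninjured retinas on the horizontal axis. Points below 0 in the interaction form a band to the right along 0 on the vertical axis, the 454 genes that differed in uninjured retinas alone by the test, and a second band downward.

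Mitosis genes formed the largest group below 0. The list holds spindle, kinetochore, cohesion and cytokinesis genes, and 53 of its 89 tested members had a called interaction below 0 and 0 above it, with a list median of -1.89 against -0.04 for all genes. Of the 89, 87 rose after NMDA in csf1rb mutants and 87 in WT, and 54 were higher in uninjured mutants than in uninjured WT, while 11 were lower in the mutant after NMDA. Over all tested genes, 14.5% were higher in uninjured mutants and 11.4% were lower in mutants after NMDA. The 11 were thus near the share over all genes, while 0 were higher in mutants after NMDA, against 11.9% of all tested genes. The summed level was 5573, 5073 and 6588 CPM in csf1rb mutants after NMDA and 667, 605 and 373 in uninjured csf1rb mutants, against 7045, 7223 and 7137 in WT after NMDA and 334, 369 and 351 in uninjured WT. Uninjured mutant retinas thus lay above all uninjured WT retinas, replicate 3 by little, and injured mutants lay below all injured WT. Without that replicate 71 members were called below 0 (median -2.29), and without replicate 1 of the same group 31 were. With limma voom 30 were called below 0, and with DESeq2 64. None was above 0 by either tool or at an unadjusted p under 0.05.

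Cyclin B3 (ccnb3), a partner of the mitotic kinase Cdk1, had 7.99, 9.06 and 8.2 CPM in csf1rb mutants after NMDA and 4.56, 3.33 and 2.46 in uninjured csf1rb mutants. The values in WT were 14, 14.7 and 14.3 after NMDA and 0.455, 0.33 and 0.453 uninjured. No groups overlapped, and the uninjured mutants lay roughly midway on a log scale between uninjured and injured WT. The interaction was -3.81 ± 0.29 (SE, adjusted p = 9.8e-07), with a rise in both genotypes, of 5.11 in WT. kifc1, a minus-end kinesin of the spindle, averaged 55.7 ± 7.46 CPM in mutants after NMDA and 4.45 ± 2.7 in uninjured mutants, against 72.6 ± 3.2 in WT after NMDA and 0.538 ± 0.0902 in uninjured WT (interaction -3.39, adjusted p = 0.0013). kif20ba, a kinesin of cell division, followed the same order with an interaction of -2.10 (adjusted p = 0.0026). The difference between the genotypes after NMDA did not pass for either kinesin (adjusted p = 0.39 and 0.31).

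DNA replication genes, with helicase, polymerase, clamp and licensing factors, moved the same way by less. Of 71 tested members, 31 had an interaction below 0 and 1 above it (GMNN, ENSDARG00000035957, the licensing inhibitor geminin, 1.19, a call lost without replicate 2 of the uninjured mutants, replicate 2 of WT after NMDA or replicate 3 of uninjured WT), with a median of -0.70, and all 71 rose after NMDA in each genotype. In uninjured mutants 35 were higher and 3 lower than in uninjured WT, and after NMDA 0 were higher and 7 lower. The 7 were near the share over all tested genes, of which 11.4% were lower in mutants after NMDA, while 11.9% were higher. Without replicate 3 of the uninjured mutants 35 were called below 0, and 22 without replicate 1 of that group. E2F8, a repressor of the E2F target genes, had 45.6 ± 0.62 CPM in mutants after NMDA and 1.49 ± 0.401 in uninjured mutants, against 58.3 ± 5.85 in WT after NMDA and 0.336 ± 0.163 in uninjured WT (interaction -2.48 ± 0.33, adjusted p = 0.00028). CDCA7, a gene induced in S phase, had 130 ± 1.25 and 2.5 ± 0.847 CPM in the mutants, injured and uninjured, against 165 ± 4.58 and 0.428 ± 0.124 in WT (-2.87 ± 0.40, adjusted p = 0.00041). DSCC1, part of a loader of the replication clamp, had 22.4, 22.2 and 25.3 CPM in mutants after NMDA and 1.22, 1.59 and 1.38 in uninjured mutants, against 35.9, 34.6 and 34.7 in WT after NMDA. In uninjured WT it had 3 counts over the group (0.0386 ± 0.00244 CPM), so no fold is given, and every uninjured mutant library was above every uninjured WT library.

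Beside these cell-cycle differences, the rod list was lower in the mutants in both states. Of its 33 tested members, 31 were lower in uninjured csf1rb mutants than in uninjured WT and 28 were lower after NMDA, while 1 was called in the interaction (gnb1b, a G protein subunit of phototransduction, 0.67, adjusted p = 0.0094), or 4 without replicate 4 of the mutants after NMDA and 2, with 1 below 0, without replicate 3 of the uninjured mutants. Summed rod levels were 1542 to 2631 CPM in mutants after NMDA and 2899 to 4992 in uninjured mutants, against 4946 to 8038 in WT after NMDA and 18620 to 21220 in uninjured WT. The uninjured mutants thus overlapped injured WT on this list. Over all tested genes, 12.4% were lower in uninjured csf1rb mutants and 11.4% after NMDA. The lower level was not particular to rods or to csf1rb mutants. Of 37 tested cone genes, 23 were lower and 3 higher uninjured, and 24 were lower and 0 higher after NMDA. Summed rod levels in uninjured csf1ra mutants, at 8184 to 12750 CPM, were also below uninjured WT. Whether the lower rod level bears on the cell-cycle genes was not tested.

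**Figure D3:**
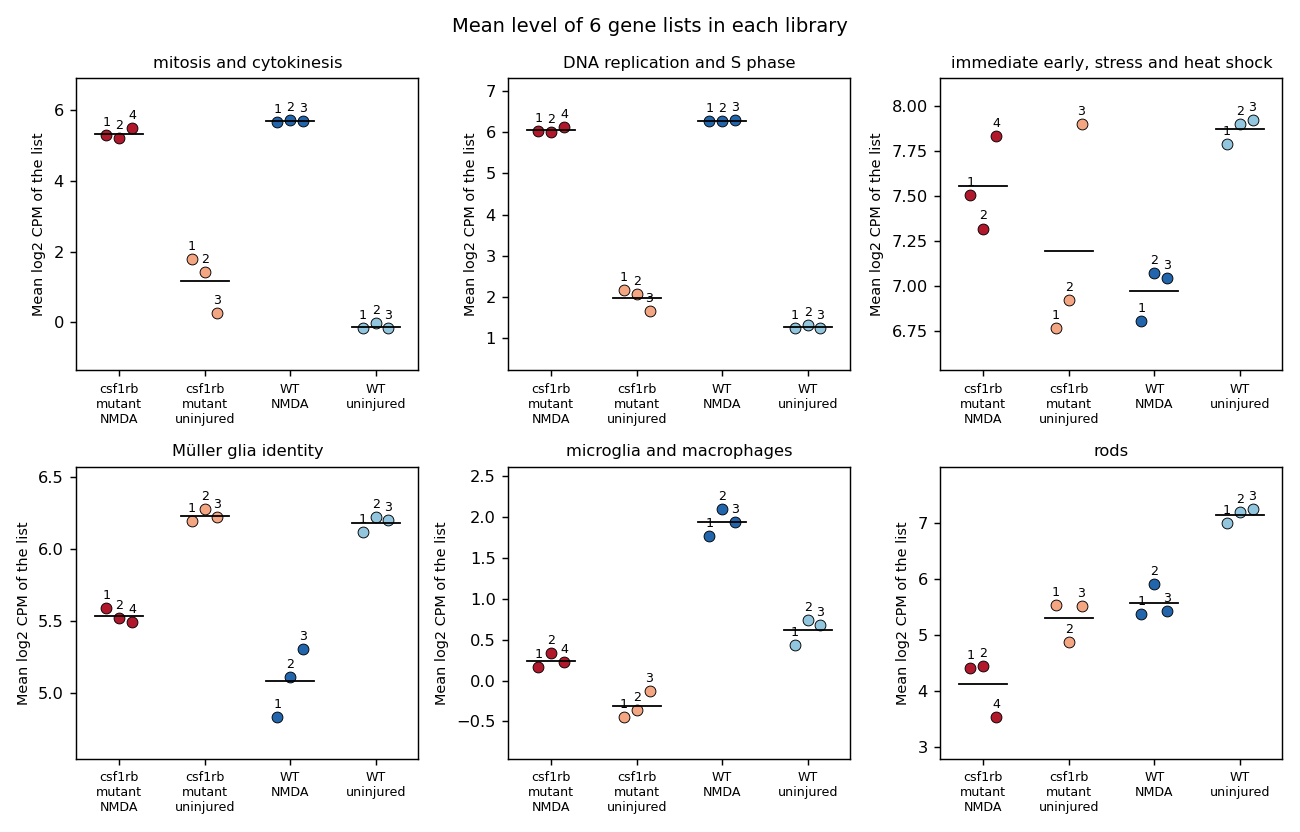
Mean log2 CPM of 6 gene lists in each of the 12 libraries, with the replicate number beside each point and the group mean as a line. In the mitosis and replication panels the uninjured csf1rb mutants sit above uninjured WT, replicate 3 lowest, and in the stress and heat shock panel that replicate sits at 7.90, beside uninjured WT (7.79 to 7.92) and above replicates 1 and 2 (6.76 and 6.92).

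Microglia and macrophage genes had a smaller injury rise in the mutants at a set of leukocyte genes. Of 55 tested members, 9 had an interaction below 0 (16.4%) and 2 above it (3.64%), with a median of -0.90. Of all tested genes, 4.07% were below and 4.1% above, so the count above was near that share. The 2 were HMOX1 and AXL, a heme-degrading enzyme and a phagocytic receptor. NMDA raised 38 members in WT and 23 in csf1rb mutants, and after NMDA 39 were lower and 3 higher in the mutants, against 28 lower and 2 higher uninjured. Over all tested genes, NMDA raised 35.6% in WT and 37% in mutants. The mutants were lower at 11.4% and higher at 11.9% after NMDA, and lower at 12.4% and higher at 14.5% uninjured. Without replicate 3 of the uninjured mutants the calls were 6 below and 1 above, and the median was -0.19. The summed level of the list is mostly apoeb, which Müller glia also express, and is not used.

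Within that list, the actin-bundling protein of leukocytes LCP1 had 0.45, 0.812 and 0.389 CPM in csf1rb mutants after NMDA and 0.325, 0.555 and 0.487 in uninjured csf1rb mutants, against 7.07, 10.6 and 10.4 in WT after NMDA and 1.12, 1.83 and 1.74 in uninjured WT. Injured and uninjured mutants overlapped, and all lay below all WT libraries. The interaction was -2.27 ± 0.46 (SE, adjusted p = 0.0066), with a WT rise of 2.58 and a mutant change of 0.31 that did not pass (adjusted p = 0.46). CORO1A, a leukocyte actin regulator, rose by 0.64 in mutants and by 2.36 in WT (interaction -1.73, adjusted p = 0.0071). lgals3bp.1, a galectin-binding glycoprotein, was at 1.56 ± 0.444 CPM in mutants after NMDA and 2.47 ± 0.611 in uninjured mutants, against 45.6 ± 14.1 in WT after NMDA and 10.6 ± 1.83 in uninjured WT (-2.76, adjusted p = 0.00034). Progranulin (grna), a lysosomal growth factor of macrophages, rose in both genotypes, to 2.09 ± 0.48 CPM in mutants and 17.8 ± 0.624 in WT, against 0.742 ± 0.258 and 2.09 ± 0.482 uninjured (-1.60, adjusted p = 0.0091). These 4 calls held without any 1 of the 12 libraries. Of the pair above 0, 1 was lost without any 1 of 9 libraries. The microglia marker cd74a was instead lower after NMDA in both genotypes. It had 0.201 CPM in mutants after NMDA and 2.44 in uninjured mutants, against 0.787 and 11.4 in WT (interaction 0.37, adjusted p = 0.78). The defining genes mpeg1.1 of macrophages and mpx of neutrophils were not analysed here.

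Stress and heat shock genes had the largest count above 0 among the lists. Of 40 tested members, 12 were above 0 and 0 below, with a median of 0.63. At an unadjusted p under 0.05, 19 were above and 3 below, and DESeq2 called 14 above and 2 below. Of the 40, 22 fell after NMDA in WT and 11 in csf1rb mutants, and 13 were lower and 3 higher in uninjured mutants than in uninjured WT. Over all tested genes, NMDA lowered 34.3% in WT and 33.5% in mutants, and uninjured mutants were lower at 12.4% and higher at 14.5%. The 11 that fell in mutants and the 3 that were higher were thus below those shares. The 12 above 0 were 30% of the list, against 4.1% of all tested genes. The count rested on single libraries more than the cell-cycle counts did. Without replicate 3 of the uninjured mutants 22 were above 0 (median 1.15). Without replicate 4 of the mutants after NMDA, replicate 1 or 2 of the uninjured mutants, or replicate 2 of uninjured WT, 6 were, and 7 without replicate 3 of uninjured WT. Up to 2 members were called below 0 in these repeats.

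Small heat shock protein HSPB1 had 513, 515 and 580 CPM in csf1rb mutants after NMDA and 79.2, 118 and 265 in uninjured csf1rb mutants, against 499, 728 and 623 in WT after NMDA and 949, 1010 and 1060 in uninjured WT. Uninjured mutants were below all other libraries, and uninjured WT above them, while the injured groups overlapped. The interaction was 2.50 ± 0.42 (SE, adjusted p = 0.0017), with a rise of 1.80 in mutants, while WT fell by 0.71. The chaperone hspa1b had 57.6, 61.4 and 101 CPM in mutants after NMDA and 7.65, 8.21 and 29.1 in uninjured mutants, against 19.3, 23.5 and 24.7 in WT after NMDA and 91.3, 157 and 124 in uninjured WT (4.74 ± 0.61, adjusted p = 0.0002). The gene listed as HSPA8 (ENSDARG00000037403), of the same chaperone family, had an interaction of 5.89 (adjusted p = 2e-05), with 15.9 ± 5.22 and 5.96 ± 3.18 CPM in mutants, injured and uninjured, against 5.32 ± 0.828 and 120 ± 21 in WT. BAG3, HSPB8, dnajb1b, hsp70.1, hsp70.3 and hsp70l were also above 0. Members of the hsp70 family are near-identical in sequence, so reads may be split among them and single values are uncertain.

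Müller glia genes were lowered less by injury in the mutants at part of the list. Of 51 tested members, 11 had an interaction above 0 and 0 below, with a median of 0.31, and 10 without replicate 3 of the uninjured mutants. At an unadjusted p under 0.05, 16 were above and 3 below, and DESeq2 called 11 above and 3 below. NMDA lowered 35 members in WT and 29 in csf1rb mutants, and after NMDA 20 were higher and 3 lower in the mutants, against 10 higher and 7 lower uninjured. Over all tested genes, NMDA lowered 34.3% in WT and 33.5% in mutants. The mutants were higher at 11.9% and lower at 11.4% after NMDA, and higher at 14.5% and lower at 12.4% uninjured. The 7 were thus near the share over all genes. The 11 above 0 were 21.6% of the list, against 4.1% of all tested genes. KCNJ10 (ENSDARG00000105022), the inward rectifier channel that clears potassium in glia, had 6.87, 4.68 and 6.57 CPM in csf1rb mutants after NMDA and 47.8, 36.6 and 37.1 in uninjured csf1rb mutants, against 0.737, 1.64 and 1.38 in WT after NMDA and 26.5, 30.4 and 28.2 in uninjured WT. No groups overlapped. It fell by 2.75 in mutants and fell by 4.51 in WT (interaction 1.76 ± 0.32, SE, adjusted p = 0.003). GLUL (ENSDARG00000099776), glutamine synthetase, had 2240 CPM in mutants after NMDA and 12100 in uninjured mutants, against 711 in WT after NMDA and 7290 in uninjured WT (0.93, adjusted p = 0.034). The retinoid-binding gene rlbp1a (1.51, adjusted p = 0.041), the water channel AQP4 (1.19, adjusted p = 0.024) and the glial factor SOX9 (ENSDARG00000043923; 2.19, adjusted p = 0.013) were above 0 as well. Another GLUL entry (ENSDARG00000100003) was not called (-0.07, adjusted p = 0.93). It had 1180 and 869 CPM in mutants, injured and uninjured, against 910 and 637 in WT. The Müller glia marker SLC1A2 was not called at either entry (ENSDARG00000052138, -0.27, adjusted p = 0.64; ENSDARG00000102453, 0.31, adjusted p = 0.53). CAV1, a caveolar coat protein, and prdx6, an antioxidant enzyme, rose in mutants by 0.44 and 0.68, whereas in WT CAV1 fell by 0.78 and prdx6 fell by 0.51. The count of 11 was 4 without replicate 3 of uninjured WT and 5 to 7 without any of 8 other libraries: all 3 of the mutants after NMDA, replicates 1 and 2 of the uninjured mutants, replicate 2 of WT after NMDA, and replicates 1 and 2 of uninjured WT. The median was 0.07 without replicate 1 of WT after NMDA.

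**Figure D4:**
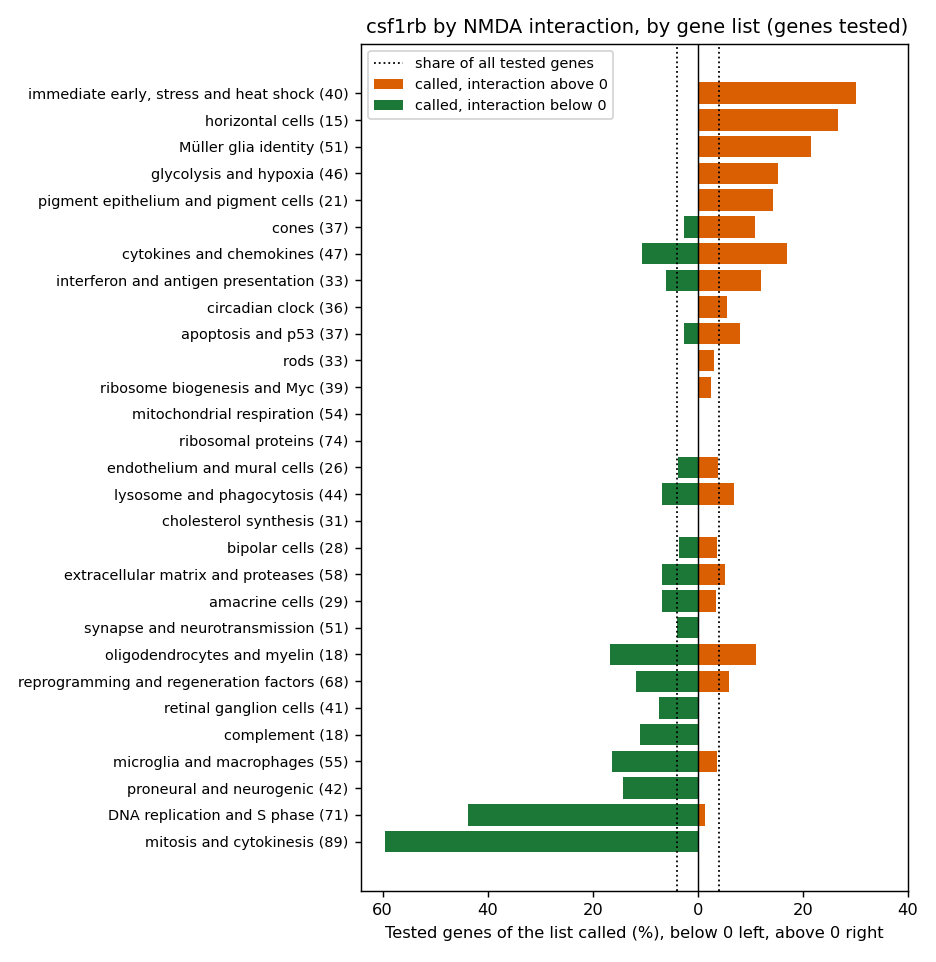
Share of the tested genes of each list (number in parentheses) with a called interaction, above 0 to the right and below 0 to the left, for lists with at least 15 tested genes. Dotted lines mark the shares over all tested genes, 4.1% above and 4.07% below. Mitosis (59.6% below) and DNA replication (43.7% below) reach farthest left, and stress and heat shock (30% above) reaches farthest right.

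Injury signals split in direction. Among 47 tested cytokine and chemokine genes, 8 were above 0 (17%) and 5 below (10.6%), with a median of 0.43. Of all tested genes, 4.1% were above and 4.07% below. The 8 were 13 without replicate 3 of the uninjured mutants and 3 to 5 without any other library but replicate 2 of the mutants after NMDA. The Il6-family gene crlf1a, whose product is secreted with cardiotrophin-like cytokine, had 669, 604 and 968 CPM in csf1rb mutants after NMDA and 15.1, 23 and 14.4 in uninjured csf1rb mutants, against 987, 1050 and 1070 in WT after NMDA and 6.28, 5.9 and 7.32 in uninjured WT. All uninjured mutants were above all uninjured WT, and the injured groups did not overlap. The interaction was -1.90 ± 0.35 (SE, adjusted p = 0.0036). STAT3, the transcription factor downstream of that family, was below 0 (-1.23, adjusted p = 0.013), with 175 CPM in mutants after NMDA and 114 in uninjured mutants, against 120 in WT after NMDA and 33.5 in uninjured WT. The chemokine cxcl12b fell by 3.41 in mutants and fell by 1.76 in WT (-1.65, adjusted p = 0.0021). The other genes below 0, m17 and il22, stayed under 2 CPM in every group. Above 0, the growth factor tgfb1a fell by 0.84 in WT, with no called change in mutants (1.28, adjusted p = 0.0086), and leptin b (lepb) was at 164 CPM in mutants after NMDA and 0.165 in uninjured mutants, against 63.7 in WT after NMDA and 0.429 in uninjured WT (2.64, adjusted p = 0.0091).

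Reprogramming and regeneration factors had 4 members above 0 and 8 below of 68 tested (median 0.08). The shares were 5.88% above and 11.8% below, against 4.1% and 4.07% of all tested genes, so the count above was near that share. Without replicate 3 of the uninjured mutants, 14 were above and 9 below. Those above were ZIC2 (ENSDARG00000015554; 1.21), the Notch target HEY1 (1.97), the Wnt inhibitor dkk1b (2.72) and lepb. INSM1 (ENSDARG00000091756), a zinc finger factor of newborn neurons, had 10.1, 11.3 and 7.35 CPM in csf1rb mutants after NMDA and 31.7, 24.5 and 10.5 in uninjured csf1rb mutants, against 11.7, 15.7 and 14 in WT after NMDA and 6.12, 6.42 and 4.87 in uninjured WT. It fell by 1.21 in mutants, where replicate 3 of the uninjured group was within the injured range, and rose by 1.25 in WT (interaction -2.46 ± 0.46, SE, adjusted p = 0.0039). The proneural and neurogenic list of 42 tested genes had 0 above 0 and 8 below without replicate 3 of the uninjured mutants. With all libraries it had 6 below 0 and 0 above (median -0.34), among them FOXN4, a factor of retinal progenitors (-2.68), the Notch ligand dlc (-1.61) and SOX4 (ENSDARG00000098834; -0.86). The microtubule genes tubb5 (-1.58, adjusted p = 0.0047) and STMN1 (ENSDARG00000004169; -2.94, adjusted p = 0.0029) belong to it too. tubb5 was higher in mutants in both states, at 460 ± 68.7 CPM after NMDA and 120 ± 38.1 uninjured, against 191 ± 20.1 in WT after NMDA and 16.6 ± 0.829 in uninjured WT.

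Among neuronal lists, horizontal cells had the largest share above 0, with 4 of 15 tested members and a median of 1.35, and 8 without replicate 3 of the uninjured mutants. NDRG1 (ENSDARG00000032849) had 339, 230 and 172 CPM in csf1rb mutants after NMDA and 139, 127 and 165 in uninjured csf1rb mutants, against 188, 240 and 171 in WT after NMDA and 466, 589 and 548 in uninjured WT. Uninjured WT lay above all other libraries, and the injured groups overlapped (2.199 ± 0.32, SE, adjusted p = 0.00057). The connexin gja10a (3.60), septin4a (1.35) and rem1 (1.32) were also above 0. In cones, 4 of 37 were above 0, among them the cone phosphodiesterase subunit PDE6H (2.54, adjusted p = 0.0065), the nuclear receptor THRB (0.81), si:busm1-57f23.1 (2.48) and the red opsin opn1lw1 (2.37). The opsin has a near-identical neighbour copy and lost its call without any 1 of 6 libraries. A cone arrestin (ARR3, ENSDARG00000098475) was below 0 (-2.41), a call that 7 such repeats lost. Without replicate 3 of the uninjured mutants 3 cone genes were above 0 and 0 below. The amacrine cell list had 1 of 29 tested members above 0 (3.45%) and 2 below (6.9%), near the shares over all tested genes. Without replicate 3 of the uninjured mutants 2 were above and 2 below. Its member above 0, the opioid precursor PENK, was at 7.57 ± 1.28 CPM in mutants after NMDA and 13.2 ± 5.28 in uninjured mutants, against 0.293 ± 0.107 in WT after NMDA and 4.68 ± 0.688 in uninjured WT (3.18 ± 0.57, adjusted p = 0.0028). NOS1, nitric oxide synthase, and the glycine transporter SLC6A9 fell further in mutants, SLC6A9 with an interaction of -1.24, and lost their calls without 2 and 8 of the 12 libraries. The neuronal lists that follow had shares near those over all tested genes (4.1% above, 4.07% below) or rested on 1 to 3 genes. In retinal ganglion cells 3 of 41 were below 0 (TUBA1A, alcamb and the chemokine receptor CXCR4, ENSDARG00000041959), in bipolar cells 1 was below (GRIK1, ENSDARG00000040627, -2.09) and 1 above (LRIT3, ENSDARG00000055463, 1.11) of 28, and in the synapse list 2 of 51 were below (SV2B and vamp1a). Of these, alcamb, LRIT3, SV2B and vamp1a lost their calls without 7 to 10 of the 12 libraries and TUBA1A without replicate 3 of uninjured WT. Without replicate 3 of the uninjured mutants, 2 bipolar cell genes were below 0 and 1 above, and 1 synapse gene was below 0.

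Glycolysis and hypoxia genes had 7 of 46 above 0 and 0 below (median 0.06), and 4 without any 1 of 5 libraries: replicate 1 of the mutants after NMDA, replicate 1 of the uninjured mutants, replicate 2 or 3 of WT after NMDA, or replicate 1 of uninjured WT. Enolase ENO1 (ENSDARG00000013750) had 178, 183 and 163 CPM in csf1rb mutants after NMDA and 97.5, 91.8 and 98.3 in uninjured csf1rb mutants, against 145, 168 and 168 in WT after NMDA and 235, 286 and 262 in uninjured WT. The uninjured groups lay on either side of the injured ones, which overlapped, and the interaction was 1.57 ± 0.17 (SE, adjusted p = 5.8e-05). The lactate transporters SLC16A1 (ENSDARG00000016963; 1.82) and SLC16A3 (ENSDARG00000045051; 1.75), the glucose transporter SLC2A1 (ENSDARG00000001437, adjusted p = 0.016) and the hypoxia factor HIF1A (0.76) were among the others. In the apoptosis and p53 list 3 of 37 were above 0 (4 without replicate 3 of the uninjured mutants): the cell-cycle inhibitor cdkn1a (2.18, adjusted p = 0.00053), the survival factor mcl1a (1.82) and GADD45B (ENSDARG00000013576; 1.18), which lost its call without any 1 of 6 libraries. cdkn1a had 80.3, 75.9 and 86.2 CPM in csf1rb mutants after NMDA and 11.8, 8.51 and 17 in uninjured csf1rb mutants, against 71.6, 78.6 and 73.6 in WT after NMDA and 37.5, 68.2 and 51.3 in uninjured WT. The injured groups overlapped, and uninjured mutants lay below uninjured WT. BAX, the killer protein of mitochondria, was below 0 (-0.49), a call that 10 of the 12 repeats lost. The apoptosis and p53 list thus had 8.11% above 0 and 2.7% below, against 4.1% and 4.07% of all tested genes.

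Of 58 matrix and protease genes tested, 3 were above 0 (5.17%) and 4 below (6.9%), near the shares over all tested genes (4.1% and 4.07%). ANXA2, a calcium-dependent membrane-binding annexin, was at 665 ± 143 CPM in csf1rb mutants after NMDA and 1.25 ± 0.633 in uninjured csf1rb mutants, against 12.7 ± 2.4 in WT after NMDA and 0.253 ± 0.0829 in uninjured WT. No groups overlapped, and injured mutants exceeded injured WT by 5.71 on the log2 scale (interaction 3.40 ± 0.63, SE, adjusted p = 0.0037). anxa5b was above 0 as well (0.97, adjusted p = 0.0032), as was the matrix glycoprotein TNC (ENSDARG00000078362; 1.53). Fibronectin FN1 (ENSDARG00000019815) was at 52.3 ± 4.42 CPM in mutants after NMDA and 5.38 ± 0.344 in uninjured mutants, against 118 ± 6.4 in WT after NMDA and 4.38 ± 0.687 in uninjured WT (-1.47 ± 0.16, adjusted p = 6.5e-05). The proteases adam8a, MMP11 and MMP14 (ENSDARG00000008388) were below 0. The 4 below 0 were 2 without replicate 1 of the uninjured mutants or replicate 2 or 3 of uninjured WT. In the complement list 2 of 18 were below 0 (c6.2 and c7b, terminal pathway genes), in the interferon list 4 of 33 were above (IRF7, isg15, irf3 and b2m) and 2 below (gbp1 and ifi30a), and in the oligodendrocyte list 2 of 18 were above (SOX10 and MYRF) and 3 below (cnp, mag and PDGFRA). The calls of c7b, isg15, ifi30a and mag were each lost without 8 to 10 of the 12 libraries, while c6.2, IRF7, gbp1, SOX10 and cnp kept theirs in all 12 repeats. The 4 interferon genes above 0 were 1 to 3 in each of these repeats, with 3 above and 1 below without replicate 3 of the uninjured mutants. The oligodendrocyte counts were 1 above and 5 below without that replicate, and the 3 below were 1 to 3 in the other repeats.

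Single genes with the strongest interactions were chosen by rule as the 12 lowest and the 12 highest called values that kept their sign without any 1 library. SULF1, which trims sulfates from heparan sulfate outside the cell, had 2.33, 2.32 and 1.87 CPM in csf1rb mutants after NMDA and 2.97, 4 and 6.25 in uninjured csf1rb mutants, against 48.1, 37.1 and 51.4 in WT after NMDA and 2.19, 2.09 and 2.34 in uninjured WT. Of the 4 groups, injured WT stood alone at a high level, and injured csf1ra mutants were at 10.1 ± 2.13 CPM. The interaction was -5.39 ± 0.34 (SE, adjusted p = 2.2e-07), with a WT rise of 4.36 and a mutant value that fell by 1.03. The gene jac2 had 0.525, 0.884 and 0.459 CPM in csf1rb mutants after NMDA and 1.14, 0.666 and 0.372 in uninjured csf1rb mutants, against 25.5, 11 and 14.9 in WT after NMDA and 0.0827, 0.147 and 0.302 in uninjured WT. Here too injured WT stood apart among the 4 groups, with injured csf1ra mutants at 8.19 ± 1.69 CPM (-6.67 ± 0.67, adjusted p = 2.4e-05).

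Starmaker (stm), known for shaping the mineral of the otolith in the zebrafish ear, had 78.4, 67 and 72 CPM in csf1rb mutants after NMDA and 0.122, 0.333 and 0 in uninjured csf1rb mutants, against 1670, 1020 and 2600 in WT after NMDA. It rose in both genotypes, and injured mutants lay well below injured WT (-4.60 on the log2 scale, adjusted p = 4e-07). With 1 count over the uninjured WT libraries no fold of the interaction is given, and its call was lost without replicate 2 of the uninjured mutants. HAUS3, a subunit of the spindle complex augmin, had 44.8 ± 1.28 CPM in mutants after NMDA and 1.02 ± 0.668 in uninjured mutants, against 51 ± 3.32 in WT after NMDA and 0.0276 ± 0.0477 in uninjured WT, the last from 2 counts. Of the other genes among the 12 lowest, teni.1, zgc:101699, zgc:193811, cfap251 and c6.1 had 0 counts in uninjured WT, olmf4l1 had 3 there, and the inflammasome adaptor pycard had 2 in mutants after NMDA. teni.1 lost its call without any library but replicate 3 of the uninjured mutants, pycard without 10 of the 12, c6.1 without 7 and zgc:193811 without 6.

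Among the highest, tnfrsf14, a receptor of the tumour necrosis factor family, had 3.3, 1.67 and 3.29 CPM in csf1rb mutants after NMDA and 0.203, 0.111 and 0.086 in uninjured csf1rb mutants, against 7.54, 8.3 and 7.35 in WT after NMDA and 19.3, 22 and 24.2 in uninjured WT. No groups overlapped. It rose by 4.36 in mutants and fell in WT (interaction 5.86 ± 0.47, SE, adjusted p = 2.2e-06). OCIAD2 was at 6.36 ± 1.05 CPM in mutants after NMDA and 0.0968 ± 0.0688 in uninjured mutants, against 0.276 ± 0.022 in WT after NMDA and 0.215 ± 0.134 in uninjured WT (5.55 ± 0.77, adjusted p = 0.00038). ANGPTL5, a secreted angiopoietin-like protein, was at 2.36 ± 0.341 and 0.0518 ± 0.045 CPM in mutants, injured and uninjured, against 0.644 ± 0.188 and 0.924 ± 0.377 in WT (6.05 ± 0.80, adjusted p = 0.00024), and igfn1.2 had the same order (6.71 ± 0.93, adjusted p = 0.00039). The cartilage matrix gene MATN3 (ENSDARG00000069245) was at 0.263 ± 0.143 CPM in mutants after NMDA and 0.483 ± 0.134 in uninjured mutants, against 0.0609 ± 0.0783 in WT after NMDA and 10 ± 3.15 in uninjured WT. Uninjured csf1ra mutants were at 10.4 ± 7.9 CPM (csf1rb interaction 6.36, adjusted p = 0.0075). The sizes of the OCIAD2, ANGPTL5, igfn1.2 and MATN3 interactions are uncertain, as each gene had a group near the floor. For MATN3 that group was WT after NMDA, and for the others it was uninjured csf1rb mutants.

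The remaining genes of the highest 12 were uncertain as well. klb, a co-receptor for fibroblast growth factors, had 1.85 ± 1.21 CPM in mutants after NMDA and at most 0.105 ± 0.0525 in the other 3 groups of the interaction. Its interaction of 5.71 lost its call without replicate 1 of uninjured WT and was 9.18 without replicate 3 of the uninjured mutants. The interferon gene isg15, si:ch211-142k18.1, si:ch211-261n11.9 and si:ch211-261n11.8 lost their calls without 7 to 11 of the 12 libraries and had 0 to 3 counts in a group. si:ch211-197h24.7 had 3 counts in WT after NMDA.

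**Figure D5:**
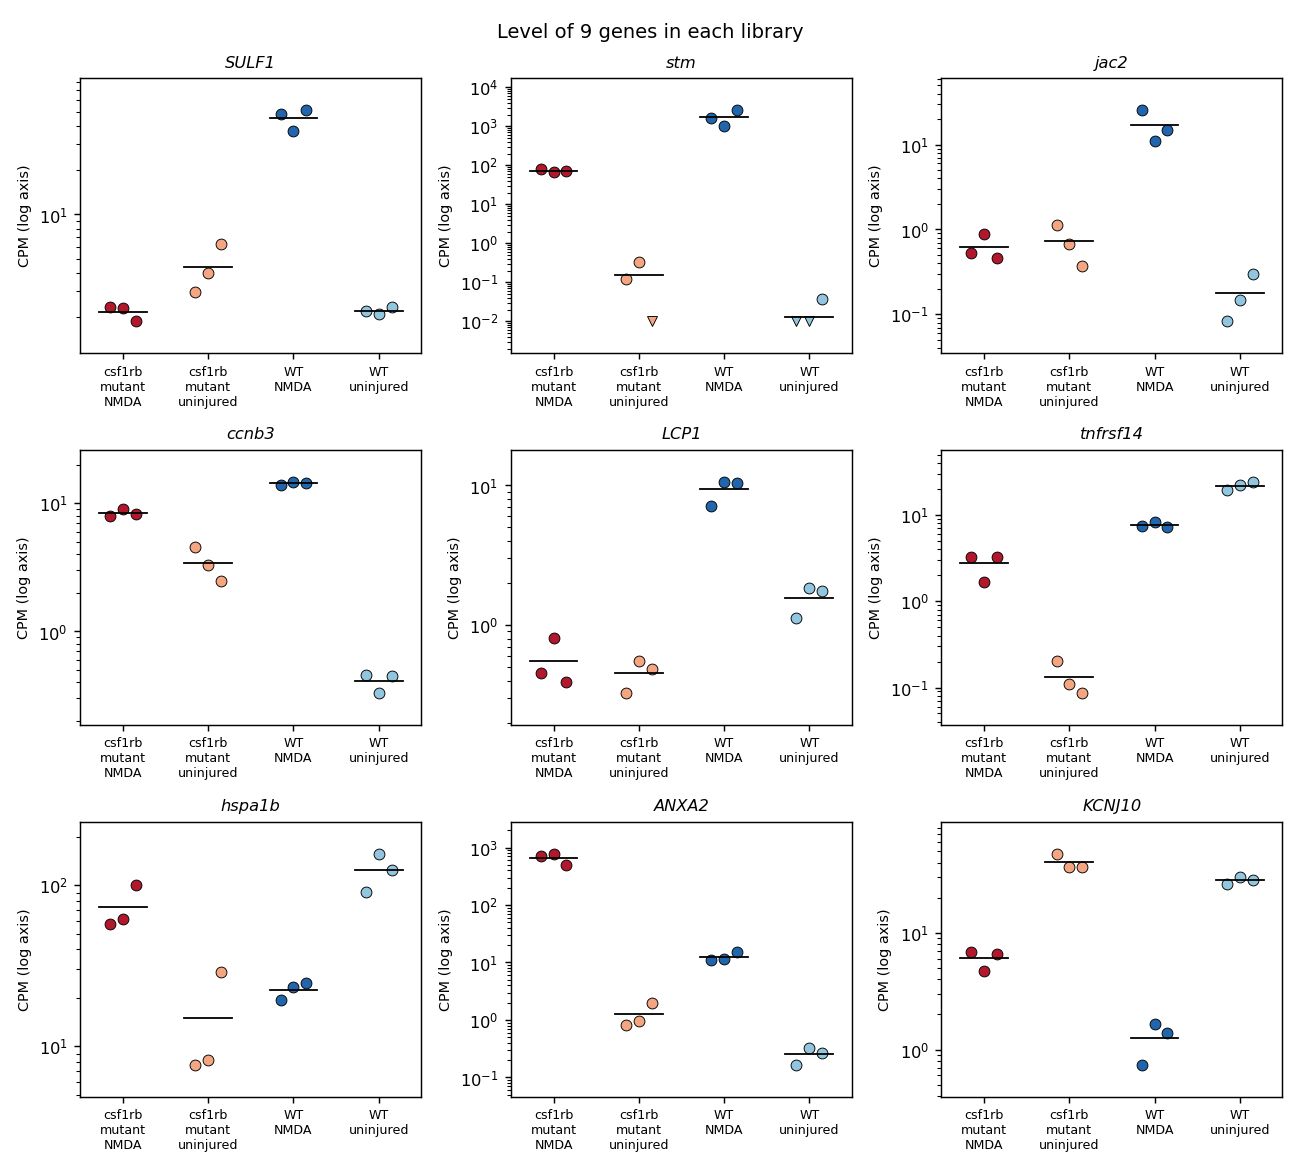
CPM on a log axis in each library for 9 genes, with group means as lines and triangles at the bottom for libraries with 0 counts. Among these 4 groups, injured WT is alone at a high level for SULF1 and jac2, uninjured csf1rb mutants lie above uninjured WT for ccnb3, and injured csf1rb mutants reach 505 to 780 CPM for ANXA2.

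The csf1ra mutants of the same experiment gave the nearest comparison. The csf1ra by NMDA interaction was above 0 for 518 genes (2.56%) and below 0 for 663 (3.27%), 5.83% together. It shares its 6 WT libraries with the csf1rb interaction, so values are set side by side and the difference was tested between the mutants' own injury changes, without WT. That test called 755 genes higher in csf1rb (3.73%) and 476 lower (2.35%), 6.08% together. Without replicate 5 of the uninjured csf1ra mutants, which stood apart from its group, it called 1374 higher and 1327 lower. It called 393 to 476 higher and 251 to 336 lower without replicate 1 or 2 of the csf1rb mutants after NMDA, replicate 2 of the uninjured csf1rb mutants, replicate 1 of the csf1ra mutants after NMDA or replicate 1 of the uninjured csf1ra mutants. For mitosis, the csf1ra interaction had 0 above 0 and 1 below of 89 (median 0.10), and the direct test called 58 lower in csf1rb mutants (median -1.72), or 72 without replicate 3 of the uninjured csf1rb mutants and 66 without replicate 5 of the uninjured csf1ra mutants. For DNA replication the direct test called 22 of 71 lower, and 33 lower and 1 higher without that csf1ra library. For Müller glia it called 10 of 51 higher and 0 lower, or 15 higher and 2 lower without that csf1ra library, and for microglia 3 higher and 10 lower of 55. For stress and heat shock it called 0 higher and 1 lower of 40, and 3 higher and 1 lower without replicate 3 of the uninjured csf1rb mutants, where the csf1ra interaction itself was above 0 for 13 and below 0 for 0. E2F8 differed by -3.70 ± 0.38 (SE, adjusted p = 4.5e-05) between the mutants' injury changes, FN1 by -2.14 ± 0.17 (adjusted p = 2.9e-06) and KCNJ10 by 2.52 ± 0.33 (adjusted p = 0.0003). hspa1b differed by 0.62 ± 0.58, which did not pass (adjusted p = 0.6). These genes were named for their csf1rb interaction, and both tests use the same csf1rb libraries.

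Several lists that changed after injury in both genotypes had no called interaction. All but 1 of the 74 ribosomal protein genes rose in csf1rb mutants and all but 1 in WT, and 0 were called in the interaction by edgeR, limma voom or DESeq2, or at an unadjusted p under 0.05 (median -0.22). The 54 mitochondrial respiration genes (median -0.09) also had 0 calls by all 3 tools, with 1 at an unadjusted p under 0.05. Among 31 cholesterol synthesis genes (median -0.54) edgeR and limma voom called 0, DESeq2 1 above and 1 below, edgeR 1 above without replicate 3 of the uninjured mutants, and an unadjusted p under 0.05 was reached by 4 above and 5 below. The 7 lymphocyte genes had 0 by every measure (median 0.27). Cholesterol synthesis genes were nonetheless higher in uninjured mutants at 18 of 31 and lower at 0, against 14.5% and 12.4% of all tested genes. A p that misses the threshold does not show that the changes were equal, and smaller differences may be missed with 3 libraries a group.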

How the data were processed

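Expected counts per gene were deposited by the authors, and the values were already whole numbers. Per the submitters' processing notes, the build was GRCz11 and the tools were RSEM 1.3.3, STAR 2.7.8a, FastQC 0.11.8 and cutadapt 4.8. RSEM shares reads among similar genes, so near-identical paralogs are uncertain. The table held 32524 entries, of which 32520 were Ensembl genes and 4 were reporters left out of the fit.

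The 18 libraries of the NMDA experiment were fitted with 1 mean per group in edgeR 4.0.16 (R 4.3.3; filterByExpr, TMM scaling, robust quasi-likelihood F-test, 12 residual degrees of freedom), keeping 20254 genes with 99.97% of the counts. Interactions and differences were contrasts of group means, p-values were adjusted over all tested genes by Benjamini-Hochberg, and a gene was called at an adjusted p under 0.05. SE is the log2 value divided by the square root of F. CPM used TMM-scaled library sizes. Across genes, libraries of a group varied with a common coefficient of 0.171, and no 2 libraries of a group agreed within sampling noise (lowest chi-square per degree of freedom 7.74). The scripts were tested on simulated data.

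Alternatives were RLE scaling, no filter, 12 libraries, a replicate block, limma 3.58.1 (voom), DESeq2 1.42.0 and leaving out each library. Leaving out libraries for the gene lists was added after the data were seen. Gene lists were matched to the table's symbols as written (432), in another case (489), by synonym (25) or without a paralog letter (273), with 70 of 1289 unmatched. The lists and the genes described were chosen with earlier results of these data known. Genes named by rule were the 12 highest and 12 lowest called interactions with at least 1 CPM in a group and the same sign without any 1 library, up to 3 called members per list with the smallest p, and the Csf1 receptors and ligands. Other list members were named after their values were seen.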

Additional observations from a re-analysis of the deposited data

Results flagged for a closer look

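The injury change differed between csf1rb mutants and WT, by the interaction test, above 0 at 831 genes and below 0 at 825. Between csf1rb and csf1ra mutants it differed at 755 genes that were higher and 476 that were lower in csf1rb mutants.

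Of the genes with the strongest csf1rb interactions, 9 also differed between the mutants' own injury changes (edgeR quasi-likelihood test, Benjamini-Hochberg adjusted p). That test called 6.08% of all tested genes. It uses the same csf1rb libraries as the interaction by which these genes were picked, so it is not independent support. tnfrsf14 differed by 6.39 (SE 0.76, adjusted p = 0.00013), with a rise in csf1rb mutants to 2.75 CPM after NMDA against 0.133 uninjured, and 0.0704 CPM after NMDA against 0.3 uninjured in csf1ra mutants. klb differed by 4.85 (adjusted p = 0.037), an uncertain value, as uninjured csf1rb mutants were near the floor at 0.0382 ± 0.0662 CPM. MATN3 (ENSDARG00000069245) differed by 4.77 (adjusted p = 0.022, with 0.263 CPM after NMDA and 0.483 uninjured in csf1rb mutants, against 0.2 and 10.4 in csf1ra mutants) and igfn1.2 by 4.16 (adjusted p = 0.03). SULF1 differed by -2.92 (SE 0.33, adjusted p = 9.9e-05), with 2.17 CPM after NMDA and 4.4 uninjured in csf1rb mutants, against 10.1 and 2.72 in csf1ra mutants. jac2 differed by -3.64 (adjusted p = 0.0021) and starmaker (stm) by -5.69 (adjusted p = 0.013), the last with 72.5 CPM in csf1rb and 3320 in csf1ra mutants after NMDA. Uninjured stm was near the floor, at 0.152 ± 0.168 CPM in csf1rb and 0.122 ± 0.154 in csf1ra mutants, so the size of its difference is uncertain. The same holds for tnfrsf14 (0.0704 ± 0.0358 CPM in csf1ra mutants after NMDA) and igfn1.2 (0.0629 ± 0.0581 in uninjured csf1rb mutants). DSCC1 differed by -1.76 (adjusted p = 0.0015) and HAUS3 by -2.54 (adjusted p = 0.026).

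The egfp reporter, which no comparison used, was detected in every library, the lowest of the 12 at 219.6 CPM. It was at 236 ± 19.9 CPM in csf1rb mutants after NMDA and 399 ± 53.4 in uninjured csf1rb mutants, against 269 ± 24.6 in WT after NMDA and 681 ± 116 in uninjured WT (SD, n = 3 each). The cre, mcherry and tdtomato reporters had 0 counts.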

How the results depend on the processing

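The counts moved with the fit. The share of calls above 0 moved too, from 50.2% in the main fit to 44.1% with RLE scaling and 42.6% with DESeq2. It moved the other way to 53.5% with only the 12 libraries and 53.3% with limma voom (788 above and 691 below). With only the 12 libraries 1438 genes were above 0 and 1248 below, and with DESeq2 1070 and 1443. RLE scaling gave 741 and 940, with a median shift of -0.04 over all genes. Without 1 library, 497 to 928 were above 0 and 487 to 855 below.

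For the csf1ra interaction, DESeq2 called 967 genes above 0, and leaving out a library gave 277 to 736 above and 291 to 985 below. For csf1rb against csf1ra mutants, DESeq2 called 1135 lower, and leaving out a library gave 393 to 1374 higher and 251 to 1327 lower. With 1 library left out, the remaining pair is assumed to vary like the other groups.

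With the replicate block the csf1rb interaction had 1080 above and 1187 below (1508 of the 1656 calls shared), the csf1ra interaction 887 and 1010, and csf1rb against csf1ra mutants 998 lower. Over 15 same-numbered pairs, r of the deviations ran from -0.034 to 0.046, with 0 over 0.1. The labels do not say what else same-numbered libraries share, and that was not tested.

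Among the named genes, csf1a alone reversed, to -2.80 without replicate 2 of uninjured WT (adjusted p = 0.52, over counts of 15 or fewer per library), and its other values without 1 library reached 2.47. The csf1ra value of 0.99 passed without replicate 2 of the uninjured mutants. The cause of these changes was not tested.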

Other observations

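Some genes had among the smallest interaction p-values without being among the largest folds, and were chosen after their values were seen. They kept their calls without any 1 of the 12 libraries. PAMR1 (ENSDARG00000103184), a secreted protein with a protease-like domain, was at 1.49 ± 0.133 CPM in csf1rb mutants after NMDA and 5.1 ± 0.102 in uninjured csf1rb mutants, against 29 ± 4.5 in WT after NMDA and 4.28 ± 0.481 in uninjured WT (SD, n = 3 each). It fell by 1.78 on the log2 scale in mutants and rose by 2.76 in WT (interaction -4.54 ± 0.32, SE, edgeR adjusted p = 6.9e-07), and its csf1ra interaction was 0.05 (adjusted p = 0.95). fabp4a, a fatty acid carrier, was at 0.957 CPM in mutants after NMDA and 1.49 in uninjured mutants, against 7.67 in WT after NMDA and 0.382 in uninjured WT, and injured csf1ra mutants were at 6.79 ± 1.19 CPM.

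Others differed in uninjured retinas. ppp1r14ba, of a family of phosphatase inhibitors, was at 22.3 CPM in mutants after NMDA and 362 in uninjured mutants, against 19.7 in WT after NMDA and 38.2 in uninjured WT. The laminin receptor subunit ITGA6 was at 102 and 76.4 CPM in mutants, injured and uninjured, against 111 and 16.6 in WT. The lens crystallin gene CRYBB2 was at 90 and 4.84 CPM in mutants, injured and uninjured, against 93.7 and 0.623 in WT. The motor gene MYO1C went the other way, at 96.4 and 8.79 CPM in mutants, injured and uninjured, against 47.9 and 22.7 in WT.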
